A study of Mus musculus with 18 samples.

Results

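The cytosolic ribosome of the mouse is built from a small subunit, the 40S, and a large subunit, the 60S, and the genes described here code for their proteins. Members were the protein-coding genes present in every counts file whose symbol on Ensembl release 97 starts with Rpl or Rps followed by a digit, together with Rplp0, Rplp1, Rplp2 and Rpsa. Symbols ending in -ps or -rs, the S6 kinase genes and pseudogenes were left out. This gave 86 of the 54165 annotated genes shared by the files, namely 31 genes of the 40S, 46 of the 60S and 9 paralogs or other genes that the symbols take in. Those 9 are Rpl3l, Rpl7l1, Rpl10l, Rpl22l1, Rpl36al, Rpl39l, Rps27l, Rps27rt and Rps19bp1, and among them Rps19bp1, which codes for a protein that binds RPS19, and Rpl7l1 are not ribosomal proteins of the core.

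The study asked how mouse eosinophils respond to stimuli of opposite types of immunity. Peritoneal eosinophils came from C57BL/6 NJ.1638 mice, which overproduce IL-5 from a transgene driven in T cells, so the cells had formed under excess IL-5, and beads against Thy1.2 and B220 were used to take out T and B cells. They were kept for 18 h in DMEM with 10% fetal calf serum alone (unstimulated), with IL-4 at 100 ng/ml, with IFN-γ at 50 ng/ml, with heat-inactivated E. coli, or with IFN-γ and E. coli together. Neither the labels nor the methods say how many mice stand behind the libraries, and no age is given. There were 18 libraries in 6 groups of 3. A first set of 12 libraries, sharing a gene list and file layout, held unstimulated a to c, E. coli, IFN-γ and IFN-γ with E. coli, here called both. A second set of 6 libraries with another layout held unstimulated d to f and IL-4. The labels name a CEL-Seq library and an RNA-seq experiment on different instruments without saying which libraries belong to which, so stimulated libraries were compared only with unstimulated ones of the same layout.

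Counts on genes ranged from 1523808 to 2734041 per library in the first set and from 3625036 to 6482289 in the second. The largest count of any gene was 4095 in the first set, just under the 4096 different molecular tags that 6 bases allow, and 191131 in the second. Only Rpl4 and Rps9 had mean counts nearer to that limit than to 0. Values are given in CPM, the counts scaled to the same library total after TMM (a correction of library totals for composition), and a gene passed the test at an adjusted p under 0.05 from edgeR. Such levels are not per length, so they are compared between libraries and not between genes.

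Cells carried the markers of eosinophils. All 10 genes of an eosinophil list were counted, and Siglecf, Ccr3, Cd24a, Alox15 and Il5ra led it, while the granule gene Epx was near 0 with 1.89 CPM at most in the first set. The summed level of the list was 5299.6, 7523 and 5596 CPM in unstimulated a to c, 5132, 4443 and 5413 with E. coli, 6081, 5398 and 6788 with IFN-γ, and 5245, 4502 and 5090.2 with both. Unstimulated library b thus stood highest. The markers themselves moved with the stimuli, as of 7 tested 1 rose and 2 fell with E. coli (median log2 change −0.19), 4 fell with IFN-γ (median −0.37), and 1 rose and 4 fell with both (median −0.60). T cell markers summed to between 11.7 and 23.3 CPM in all 18 libraries, with Trbc1 at 0 in the second set. The list of 9 B cell genes, led by Igkc, summed to 316, 307 and 193 CPM in unstimulated a to c, to 57.9, 71.7 and 122 with E. coli, to 164, 104 and 87.7 with IFN-γ, and to 181, 204 and 233 with both. Of its 6 tested genes 6 fell with E. coli and 5 with IFN-γ, and 0 passed with both by edgeR (1 at an unadjusted p under 0.05). The 12 peritoneal macrophage genes, of which Adgre1 is also an eosinophil gene, summed to 1886, 1999 and 1992 CPM in unstimulated a to c, 1733, 1555 and 2117 with E. coli, 2669, 2588 and 2841 with IFN-γ, and 2413, 2426 and 2931 with both. Every library with IFN-γ, alone or with E. coli, thus lay above every unstimulated one. Of 11 tested 5 fell with E. coli, 4 rose and 1 fell with IFN-γ, and 2 rose and 2 fell with both. Sums of 8 neutrophil genes, led by S100a8, were 12.6, 12.6 and 19.7 CPM in unstimulated a to c against 45.8 to 128 in the 9 stimulated libraries, and sums of 7 mast cell genes, led by Tpsb2, were 9.99, 8.81 and 7.38 unstimulated, 10.1, 6.64 and 34.3 with E. coli, 30.01, 14.3 and 13 with IFN-γ, and 36.3, 72.4 and 66.1 with both. Of 2 tested mast cell genes 1 rose with IFN-γ and 2 with both. The part of the markers and of these other cells in the changes below was not tested, and in bulk samples fewer cells of a type and less RNA per cell cannot be told apart.

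Ribosomal protein genes are transcribed at high rates in nearly all cells, and their mRNAs begin with a run of pyrimidines, the 5′ terminal oligopyrimidine or TOP motif, through which mTORC1 and LARP1 control their translation. Each ribosome holds a single copy of most of these proteins, the stalk proteins P1 and P2 being the exception, and unassembled copies are degraded. Mammalian genomes carry very many processed pseudogenes of these genes, which makes reads from them hard to place.

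In the first set 82 of the 86 members passed the filter on low counts. The 4 others were Rpl10l and Rpl3l, testis and muscle paralogs, Rpl39l, another testis paralog, and Rps27rt, a retrogene copy of Rps27. Their counts were low in that set. All 77 core genes were counted, and 74 had a mean above 100 CPM. Together the members took 3.58%, 4.13% and 3.31% of the counts on genes in unstimulated a, b and c. The share was 3.46%, 3.46% and 3.45% with E. coli, 3.96%, 3.63% and 3.62% with IFN-γ, and 3.11%, 3.53% and 3.68% with both. Every stimulated group overlapped the range of the unstimulated libraries. Group means were 3.67% ± 0.418 (SD, n = 3) unstimulated, 3.46% ± 0.00642 for E. coli, 3.74% ± 0.196 for IFN-γ and 3.44% ± 0.295 for both. Two-sided exact permutation tests against the unstimulated libraries gave p = 0.7, 0.8 and 0.5, where 0.1 is the smallest p that 3 libraries against 3 can give.

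**Figure D1:**
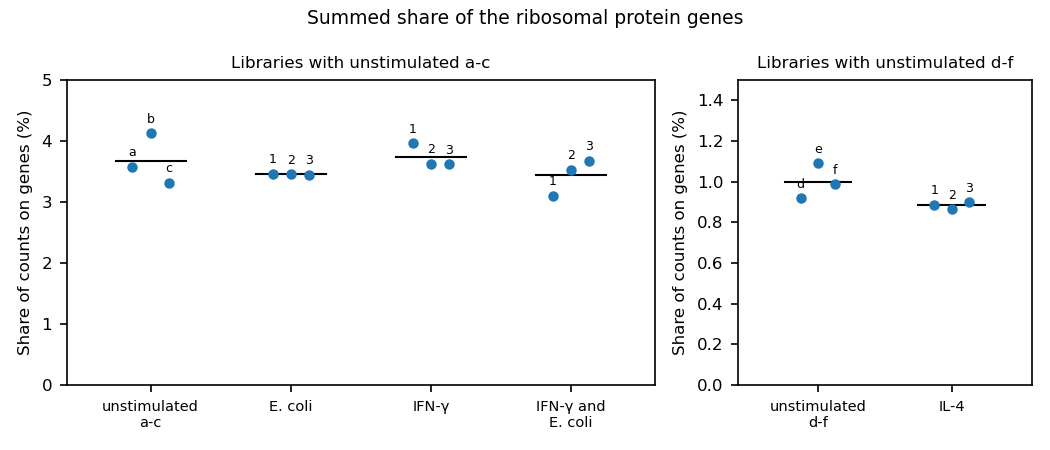
Summed share of the 86 ribosomal protein genes among all counts on genes (percent), each point a library, with bars at the group means. Unstimulated b is the highest library of the first set at 4.13%, and every library of the second set lies at or under 1.09%.

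Unstimulated library b sat above its replicates for almost the whole family. It had the highest value of its group in 79 of the 82 tested members, by a median of 0.25 on the log2 scale over the group mean, while c was lowest in 64, at a median of −0.19. Library b also had the fewest counts of the 3 (1562034, against 2419241 in a and 2211861 in c) and the smallest share of counts off genes, 27.2% against 39.4% and 36.1%. In the group with both stimuli library 3 was highest in 63 members and library 1 lowest in 68, and the share off genes was 34.6%, 31.9% and 21.1% in libraries 1 to 3. Whether depth, the eosinophil markers or these shares play a part in the position of b was not tested.

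The scaling matters for directions in the first set. With library totals in place of TMM the median log2 change over all tested genes moved from −0.03 to −0.20 with IFN-γ, from −0.04 to −0.29 with both, and from −0.02 to −0.25 for both against E. coli. The members' medians moved with it, so that their distance to the all-genes median was 0.20 and 0.21 with IFN-γ, 0.18 and 0.19 with both, and 0.19 under either scaling for both against E. coli. Changes are therefore to be read relative to the typical gene.

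With IFN-γ the members that passed the test all moved upward. Of the 82 tested members 12 passed, where 31.6% of all genes tested did. All 12 rose (14.6%, against 15.6% of all genes) and by edgeR 0 fell (against 16.0%). No member was lower at an unadjusted p under 0.05 either, and 25 were higher. DESeq2 called 13 members, 13 of them higher and 0 lower, 11 of them shared with edgeR. The median log2 change was 0.17 over the members and −0.03 over all genes. With library totals in place of TMM 7 members rose and 2 fell, and the members' median was 0.00315. The share that rose was thus near the background. Over all genes that passed, 49.4% were higher with TMM and 28.8% without.

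Small-subunit genes supplied 7 of the 12 rises with IFN-γ, out of 31 (22.6%, against 15.6% of all genes), with a median log2 change of 0.22. With library totals 5 of them rose and the median became 0.06. The rises numbered 4 without unstimulated library a, 19 without b and 5 without c. Rps20 (ENSMUSG00000028234, chr4:3831334-3835665, minus strand), for uS10 of the 40S head, had 539, 631 and 509.8 CPM unstimulated and 895, 791 and 1014 with IFN-γ. All IFN-γ libraries lay above all unstimulated ones, and the log2 change was 0.69 ± 0.14, adjusted p = 0.000863 (SE, n = 3). A snoRNA gene, Gm24016, lies within Rps20. Rps27 (ENSMUSG00000090733, chr3:90212522-90213651, minus strand), for the zinc-binding eS27, had 129.5, 166 and 120.2 CPM unstimulated and 203, 203 and 257 with IFN-γ, again without overlap, with a log2 change of 0.68 ± 0.18, adjusted p = 0.00655. Among the 40S genes that rose were also Rps15a (0.59), Rps2 (0.41), Rps25 (0.37) and Rps7 (0.31).

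On the large subunit 4 of 46 genes rose with IFN-γ (8.7%, against 15.6% of all genes). The median log2 change was 0.15, which became −0.01 with library totals. Rpl10 (ENSMUSG00000008682, chrX:74270812-74273135, plus strand) codes for uL16, which is placed last in the maturing 60S close to the peptidyl transferase centre. It had 63.6, 91.3 and 86.9 CPM unstimulated and 118, 119 and 136 with IFN-γ. The groups were apart, and the log2 change was 0.64 ± 0.13, adjusted p = 0.000913. The snoRNA gene Snora70 lies within Rpl10 on the same strand. Rpl4 (0.41), whose protein lines the peptide exit tunnel, Rpl5 (0.39), a carrier of 5S rRNA, and Rpl23 (0.37) completed the list. Rpl4 had a mean of 2157 counts in the first set, where counts end at 4095. The smallest changes belonged to Rps21 (−0.11), Rps15 (−0.13), Rpl11 (−0.14), Rpl41 (−0.21) and Rpl10a (−0.28), and none of these 5 passed the test. Outside the core Rps19bp1 rose, from 9.99, 6.92 and 10.3 to 18.9, 15.8 and 13 CPM (0.78 ± 0.25, adjusted p = 0.0228).

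The IFN-γ count depended on the unstimulated libraries. Without b, 34 members rose and 0 fell by edgeR and the members' median was 0.33. Without a the count was 6, and without IFN-γ library 3 it was 7. Rps20, Rps27 and Rpl10 passed under every alternative tried, and Rps19bp1 did not.

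IFN-γ together with E. coli moved more members, and in either direction. Here 22 members passed, against a share of 49.0% over all genes, of which 18 rose (22%, against 23.9%) and 4 fell (4.88%, against 25.2%), and the median log2 change was 0.14 against −0.04 over all genes. Library totals in place of TMM turned this into 5 rises and 19 falls, with a members' median of −0.10. The share of higher genes among all that passed moved from 48.7% to 29.7% in the same step. DESeq2 called 23 members, 21 of them shared. By subunit, 8 genes rose and 2 fell on the 40S (median 0.16; 3 and 6 with a median of −0.08 with library totals) and likewise 8 and 2 on the 60S (median 0.10; 1 and 13 with a median of −0.14 with library totals). In 14 of the 22 members that passed (63.6%) the libraries of both groups did not overlap, against 94.2% of all genes that passed.

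Small-subunit genes were again among the rises. Rps20 reached 800.1, 906 and 1162 CPM with both stimuli, all above the unstimulated libraries, a log2 change of 0.77 ± 0.14, adjusted p = 0.000141. For Rpl10 the values were 128, 136 and 128 CPM and the change 0.71 ± 0.13, adjusted p = 0.000182. Rps2 (ENSMUSG00000044533, chr17:24718116-24721929, plus strand), for uS5 beside the mRNA entry channel, had 581, 755 and 634 CPM unstimulated and 955, 968 and 982 with both. The groups were apart and the log2 change was 0.56 ± 0.11, adjusted p = 0.000379, but the gene Snhg9 overlaps Rps2 on the opposite strand. Rpl22l1, a paralog that can take the place of Rpl22, rose from 82.5, 108 and 84.1 to 107, 148 and 171 CPM with a single overlapping library in the stimulated group (0.65 ± 0.16, adjusted p = 0.00188), and Gm33051 overlaps it on the opposite strand. Among the rest Rps27 (0.63), Rpl35 (0.49), Rps15a (0.46), Rpl23 (0.42) and Rps28 (0.40) rose, as did Rps19bp1 (0.70) and Rpl7a (0.32).

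Falls with both stimuli were led by Rps15 (ENSMUSG00000063457, chr10:80292453-80294114, plus strand), for uS19 at the contact between the subunits. Its level was 433, 568 and 399 CPM unstimulated, 472, 406 and 393 with IFN-γ and 269, 339 and 352 with both. Every library with both stimuli lay below every unstimulated and every IFN-γ library, and the log2 change against unstimulated was −0.54 ± 0.14, adjusted p = 0.00279. Rpl14 (ENSMUSG00000025794, chr9:120571444-120574654, plus strand), for eL14 on the surface of the 60S, had 207, 239 and 203 CPM unstimulated and 136, 173 and 181 with both, without overlap (−0.40 ± 0.12, adjusted p = 0.00892). Rps21 (ENSMUSG00000039001, chr2:180257377-180258445, plus strand), for eS21 of the 40S, had 336, 420.4 and 297 CPM unstimulated and 221, 280.2 and 296 with both, again apart (−0.40 ± 0.13, adjusted p = 0.0206). Rpl10a, for uL1 of the L1 stalk, fell by 0.44 on the log2 scale with overlapping libraries, and a noncoding gene starts beside it on the opposite strand. Without b, 36 members rose and 1 fell, with a members' median of 0.30. Leaving out a gave 9 rises and 13 calls in all, leaving out c gave 10 rises and 8 falls, leaving out library 1 of this group gave 1 fall, and leaving out its library 3 gave 11 rises and 8 falls. Rps20, Rpl10, Rpl22l1 and Rps15 passed under every alternative tried.

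E. coli alone moved as many members as IFN-γ did. As with IFN-γ and with both, members passed less often than all genes. With E. coli 12 members passed, where 30.2% of all genes did. Of these members 5 rose (6.1%, against 13.5% of all genes) and 7 fell (8.54%, against 16.7%). Medians were −0.03 over the members and −0.02 over all genes, and DESeq2 called 12. Rises were Rps19bp1 (1.01), Rpl10 (0.61), Rpl7l1 (0.41), Rps2 (0.40) and Rpl7a (0.31). Rpl10 had 126, 123 and 119 CPM with E. coli, all above the unstimulated 63.6, 91.3 and 86.9 (0.61 ± 0.13, adjusted p = 0.00111). Rps19bp1 (ENSMUSG00000051518, chr15:80260615-80264315, minus strand) had 9.99, 6.92 and 10.3 CPM unstimulated and 19.4, 18.3 and 18.6 with E. coli, also apart (1.01 ± 0.23, adjusted p = 0.00266). Rpl7l1, which codes for a protein related to uL30 that acts in early 60S assembly, had 55.9, 45.9 and 60.3 and then 75.7, 67.7 and 74.0 CPM.

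Of the 31 genes of the 40S 5 fell with E. coli (16.1%), near the 16.7% of all genes. They were Rps24 (−0.49), Rps21 (−0.45), Rps4x (−0.44), Rps15 (−0.42) and Rps27a (−0.32). Rps24 (ENSMUSG00000025290, chr14:24487125-24496959, plus strand), for eS24, had 417, 552 and 350.2 CPM unstimulated and 317, 316 and 306 with E. coli. The groups did not overlap, and library b carried the highest value (−0.49 ± 0.13, adjusted p = 0.00992). The X-linked Rps4x codes for eS4, and Rps27a for a fusion of ubiquitin with eS31. Of 46 genes of the 60S 2 fell (4.35%), among them Rplp2 (−0.50) of the stalk. Rplp2 had 307, 547 and 351 CPM unstimulated and 230.1, 326 and 287 with E. coli, so a stimulated library overlapped the unstimulated range. All of these falls rest on library b, since without it 8 members rose and 0 fell by edgeR and the members' median was 0.11. Rises numbered 2 without a and 3 without E. coli library 1. Falls numbered 3 without any single E. coli library and 4 without any single IFN-γ library or without library 1 or 2 of both, and without E. coli library 1 the members that passed were 6. Among these calls Rps19bp1 and Rpl10 passed under every alternative tried.

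**Figure D2:**
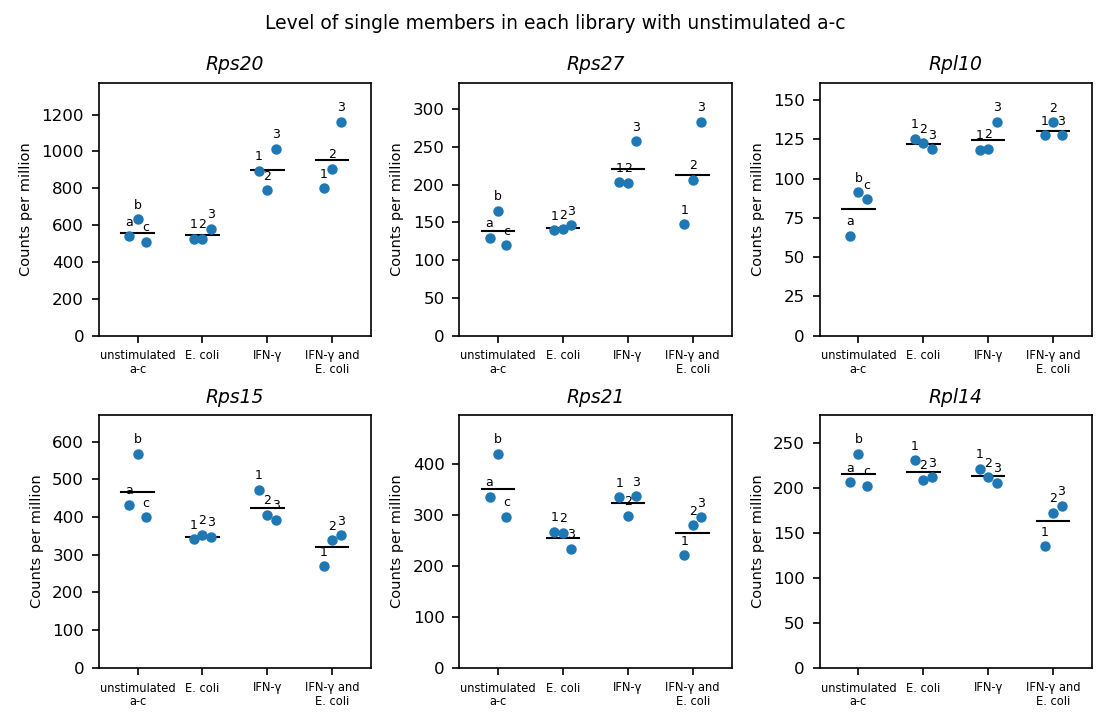
Levels in CPM of Rps20, Rps27, Rpl10, Rps15, Rps21 and Rpl14 in each of the 12 libraries of the first set, by group. Rps20 lies between 791 and 1162 with IFN-γ, alone or with E. coli, against 631 at most elsewhere, while Rpl14 is lowest with both stimuli.

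Comparing both stimuli with each stimulus alone asks what the second one added. Added to IFN-γ, E. coli moved 1 member, where 12.2% of all genes passed. By edgeR 0 members rose (against 6.26% of all genes; DESeq2 called 1 member in all) and 1 fell (1.22%, against 5.98%), with medians of −0.05 and 0.01. At an unadjusted p under 0.05, 6 members were lower and 0 higher. The member that fell was Rpl14, with 222, 212 and 207 CPM with IFN-γ and 136, 173 and 181 with both, apart (−0.39 ± 0.12, adjusted p = 0.0401). The count was 0 by edgeR without E. coli library 1 or 2, without any single IFN-γ library or without library 2 of both. It was 2 without b and 5, all lower, without library 3 of both, and without library 1 of both 1 member rose and 0 fell.

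Added to E. coli, IFN-γ moved 15 members, where 32.8% of all genes passed. It raised 14 (17.1%, against 17.5% of all genes) and lowered 1 (1.22%, against 15.3%), and all 15 were apart in their libraries, as were 94.6% of all genes that passed. Medians were 0.17 over the members and −0.02 over all genes. With library totals the split became 4 rises and 11 falls with a median of −0.0609, while that of all genes that passed moved from 53.3% to 27.8% higher. Rps20 had 525, 526 and 581 CPM with E. coli and 800.1, 906 and 1162 with both, apart, a log2 change of 0.81 ± 0.14, adjusted p = 0.000149. Rps24 (0.65), Rpl22l1 (0.63), Rps27 (0.58) and Rps12 (0.49) also rose, and Rpl14 fell (−0.41 ± 0.12, adjusted p = 0.0106). Of the 14 rises 9 were of the 40S (29% of 31 tested), which had a median of 0.20. Another 4 were of the 60S (8.7% of 46), with a median of 0.17. With library totals these became 3 rises and 2 falls on the 40S, and 0 rises and 7 falls on the 60S. This comparison uses none of the unstimulated libraries in its difference, and without b its members' median stayed at 0.17. With counts corrected for collisions of molecular tags fewer members passed, and their median was 0.13. Leaving out E. coli library 1 gave 7 rises and 0 falls by edgeR, leaving out E. coli library 2 gave 6 rises among 7 calls, and leaving out library 3 of both gave 5 rises among 6 calls. Rises numbered 9 without E. coli library 3 or without library 2 of both, and the fall of Rpl14 was lost without library 1 of both.

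The interaction, which tests whether IFN-γ and E. coli together differ from the sum of their separate changes, passed in 0 of 82 members by edgeR in either direction (against 4.62% of all genes, 2.58% higher and 2.04% lower). DESeq2 called 0, and 5 members had an unadjusted p under 0.05. Rps19bp1 had the lowest value, −1.10 ± 0.34 (SE), adjusted p = 0.074.

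The comparisons with unstimulated a to c share those libraries, as the comparisons with both share theirs, so each gene's values side by side are not separate evidence. Over the 4 comparisons with unstimulated libraries, including that of IL-4, 32 of the 83 members tested in either set passed at least once (38.6%, against 53.7% of all genes tested in either set) and 51 did not, and 3 members were tested in neither. Rpl10, Rps2 and Rps19bp1 rose with all 3 treatments of the first set. The call of Rps19bp1 was lost under 4 of 16 alternatives with IFN-γ and under 6 of 16 with both, in either case with DESeq2, with library totals and without b, and that of Rps2 with E. coli was lost without a. Rpl10 alone was called in opposite directions, through its fall with IL-4 described below.

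**Figure D3:**
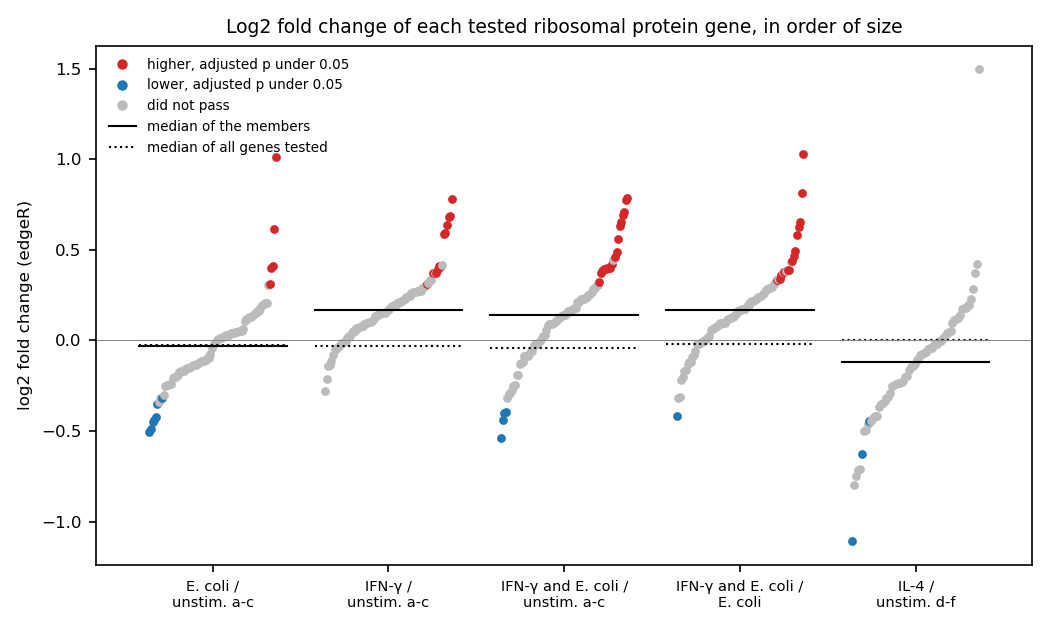
Log2 change of every tested ribosomal protein gene in 5 comparisons, each point a gene, red where it rose and blue where it fell, with a solid line at the members' median and a dotted line at the median of all genes. With library totals in place of TMM the medians with IFN-γ, with both, and for both against E. coli become 0.00315, −0.10 and −0.0609, so the upward shifts are relative to other genes.

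The P-stalk, made of P0, P1 and P2, recruits elongation factors to the 60S. With IFN-γ its genes Rplp0, Rplp1 and Rplp2 had log2 changes of −0.00187, 0.16 and 0.04, and with both −0.02, −0.09 and −0.13, and only the fall of Rplp2 with E. coli passed in these comparisons with unstimulated a to c. With library totals 2 stalk genes fell with E. coli and 1 with both. The 5S particle, which also binds MDM2 when ribosome assembly is disturbed, is built on Rpl5 and Rpl11. Rpl5 rose with IFN-γ (0.39 ± 0.11) and Rpl11 did not pass with any stimulus of the first set (−0.19 with E. coli, −0.14 with IFN-γ, −0.32 with both). The call of Rpl5 was lost with library totals and without unstimulated library a, and of the 2 genes 1 fell with both under library totals or without c, while 1 rose without b. Around the peptide exit tunnel 10 genes were tested, of which 0 passed with E. coli by edgeR or DESeq2 or at an unadjusted p under 0.05, 1 rose with IFN-γ (Rpl4) and 3 rose with both, namely Rpl35, Rpl4 and Rpl31, where 30.2%, 31.6% and 49.0% of all genes passed. Without unstimulated library a 0 of these 10 passed with IFN-γ or with both by edgeR, and without c 1 fell with E. coli, 0 passed with IFN-γ by edgeR and 1 rose with both. Without b 4 rose with IFN-γ, 5 with both and 1 with E. coli, and with library totals 0 passed with both and the median turned from 0.20 to −0.04.

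Several members are known for roles beyond or beside protein synthesis. Rps6, the target of the S6 kinases, had log2 changes of 0.04, 0.27 and 0.18 with E. coli, IFN-γ and both. Rps3, which also has a part in DNA repair and binds NF-κB, had 0.01, 0.26 and 0.18. Rpl13a, known from the IFN-γ-activated inhibitor of translation in monocytes, had 0.13, 0.19 and 0.44, at 15.5, 16.4 and 10.3 CPM unstimulated and 13.9, 17.8 and 15.6 with IFN-γ. None of these 3 genes passed the test. Rps19, the gene most often mutated in Diamond-Blackfan anaemia, had 0.15, 0.22 and 0.13, and Rpsa, also known as a laminin receptor, 0.06, 0.15 and 0.16, without a call.

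Paralogs could be set beside their partners. Rpl22 had log2 changes of 0.20, 0.05 and 0.14 with E. coli, IFN-γ and both, none past the test, where Rpl22l1 had 0.03, 0.34 and 0.65, of which the last passed. The difference between the paralogs was not tested. Rps27l, a paralog of Rps27 that is a target of p53, had 0.16, 0.17 and 0.17, and Rpl36al, the partner of Rpl36a, 0.12, 0.01 and −0.19, without a call. Rpl36a itself had 0.04, 0.42 and 0.30, Rpl39 −0.15, 0.30 and 0.28, and Rpl3 0.21, 0.25 and 0.40, the last of which passed.

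The second set measured the family in another way. There the members took only 0.918%, 1.09% and 0.987% of the counts in unstimulated d to f and 0.886%, 0.865% and 0.898% with IL-4. Means were 0.999% ± 0.0869 and 0.883% ± 0.0168 (SD, n = 3), every IL-4 library lay below every unstimulated one, and the two-sided exact permutation p was 0.1, the smallest possible. Only 68 of the 86 members passed the low-count filter. The 18 that did not were Rpl10l, Rpl39l, Rpl3l and Rpl36al of the paralogs and 14 core genes, Rpl7a, Rpl10a, Rpl11, Rpl23a, Rpl24, Rpl27, Rpl28, Rpl36a, Rps4x, Rps6, Rps12, Rps16, Rps27a and Rps29. Those core genes all passed in the first set, where Rpl23a had a mean of 1823 counts and Rps6 of 1133, against 0 and 0.333 counts in the second. Conversely Rps27rt was counted 36 to 86 times per library in the second set and 0 or 1 times in the first. Core genes with a mean under 10 CPM numbered 0 in the first set and 33 in the second.

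Low levels in the second set went with the number of pseudogenes. A search of the members' transcripts against the annotated transcripts found 628 pseudogenes with at least 95% identity over at least 200 bases, belonging to 76 members. Members with 0 or 1 such pseudogene (21 genes) had a median of 48.8 CPM in the second set, those with 2 to 5 (28 genes) 12.2 and those with over 5 (37 genes) 7.34. In the first set the order was the other way, with medians of 278, 379 and 524. Across the 77 core genes Spearman's rho between the number of pseudogenes and the level was −0.419 in the second set and 0.148 in the first, and it was 0.148 between the levels of both sets. These are descriptions across genes, which are not independent replicates. Counts did fall on some pseudogenes of the second set. Gm10240, a pseudogene of Rpl21, had a mean of 1058 counts there. Pseudogenes together took 0.102% to 0.104% of counts in the groups of the second set and 0.0169% to 0.0274% in those of the first. The study's methods counted uniquely mapped reads alone for libraries aligned with TopHat2 and give no such rule for those aligned with STAR. Which set had which aligner is not stated, and the part of this in the levels was not tested.

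**Figure D4:**
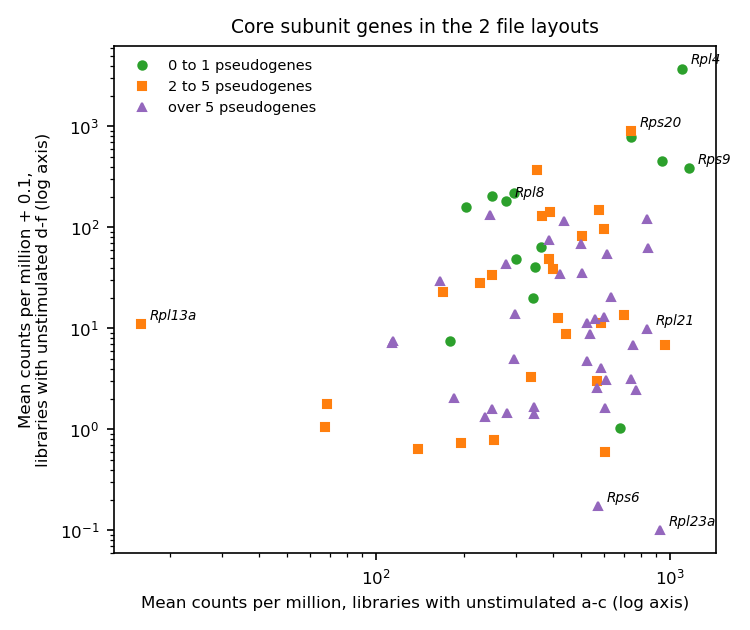
Mean CPM of the 77 core genes in the first set (horizontal) and the second set (vertical), on log axes with 0.1 added on the vertical, marked by the number of near-identical annotated pseudogenes. The 37 members with over 5 pseudogenes have the lowest median of the second set, 7.34 CPM, and the highest of the first, 524 CPM.

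IL-4 was tested on those 68 members, of which 3 passed, where 10.3% of all genes did. By edgeR 0 rose (against 5.97% of all genes) and 3 fell (4.41%, against 4.35%), while 2 were higher at an unadjusted p under 0.05 and DESeq2 called 1 higher among its 4. The members' median log2 change was −0.12, against 0.00 over all genes, and −0.01 without unstimulated library e, which was the highest of its group in 41 members, as it was in the sum of the eosinophil markers (8894, 10369 and 8956 CPM in d to f). With IL-4 these markers summed to 7993, 8275 and 8083 CPM, every library below every unstimulated one, as for the members' share, and of 10 tested 4 rose and 2 fell. Their part in the members' values was not tested. Rpl10 had 37, 62 and 52 counts, or 10.2, 10.2 and 9.77 CPM, in unstimulated d to f and 21, 36 and 15 counts, or 3.98, 5.96 and 3.87 CPM, with IL-4. The groups were apart, and the log2 change was −1.11 ± 0.28, adjusted p = 0.0315. With counts of its pseudogenes by sequence added the change was −0.72 (adjusted p = 0.0567), and with those of copies by symbol −0.33 (adjusted p = 0.117). Rpl8 (ENSMUSG00000003970, chr15:76904078-76906314, plus strand), for uL2 next to the peptidyl transferase centre, had no pseudogene by the search. Its values were 187, 227 and 215 CPM unstimulated and 158, 145 and 159 with IL-4, all lower (−0.45 ± 0.12, adjusted p = 0.0423).

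The IL-4 calls sit close to the threshold. The count was 0 by edgeR without f, without IL-4 library 1 or without IL-4 library 3, and 1 without IL-4 library 2, while without e a member rose. Rpl10 and Rpl8 lost their calls under 6 and 5 of 14 alternatives. Rplp1 of the stalk was higher in all IL-4 libraries (327, 268 and 346 CPM unstimulated, 413, 422 and 424 with IL-4) and missed the test (0.42 ± 0.12, adjusted p = 0.0581). Rpl5 had 7, 4 and 12 counts unstimulated and 25, 37 and 9 with IL-4, a log2 value of 1.5 ± 0.54, adjusted p = 0.113, from counts too few to say more. Rpl4 (−0.44 ± 0.13, adjusted p = 0.0618) and Rpsa (−0.80 ± 0.45, adjusted p = 0.295) did not pass. At the low end Rpl31 (−0.75), Rpl12 (−0.71) and Rpl36 (−0.71) did not pass, nor did Rpl27a (0.37), Rps7 (0.28) and Rpl19 (0.23) at the high end. Of 11 tested macrophage genes 6 fell with IL-4, their list summing to 2911, 3393 and 3539.8 CPM in unstimulated d to f and to 2275, 2262 and 2535 with IL-4, while 3 of 5 tested B cell genes rose, with sums of 57.2, 55.8 and 105 against 123, 114 and 148. Their part in the members' values was not tested.

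The annotated starts of the genes were searched for the TOP motif. RefSeq promoter windows on GRCm38.p6 were available for 66 members. A C at the annotated start followed by at least 4 pyrimidines was found in 14 of them (21.2%), against 813 of 27025 genes in the table (3.01%), and a run of at least 8 pyrimidines over the start in 17 (25.8%), against 1240 (4.59%). With E. coli 2 of 13 tested members with such a start passed, all 2 lower (median log2 change 0.04), and 8 of 49 others, 5 of them higher (median 0.01). With IFN-γ 2 of the 13 rose (median 0.22) and 8 of the 49 (median 0.17), and with both 3 rose and 2 fell of the 13 (median 0.18) and 12 rose and 2 fell of the 49 (median 0.16). Medians with IL-4 were −0.02 over 12 and −0.16 over 39. Windows of 30 bases, 10 before the start and 20 from it, are given for 3 members with the feature and 3 without, chosen among the members named for their roles to show how annotated starts differ, with the pyrimidine run over the start in capitals. They lie at chr4:86857348-86857377, minus strand, for Rps6, at chr3:90213629-90213658, minus strand, for Rps27, at chr7:141447641-141447670, plus strand, for Rplp2, at chr5:115559457-115559486, plus strand, for Rplp0, at chrX:102189372-102189401, minus strand, for Rps4x and at chrX:74270806-74270835, plus strand, for Rpl10.
Rps6: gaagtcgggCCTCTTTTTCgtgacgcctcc
Rps27: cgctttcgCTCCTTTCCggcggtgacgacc
Rplp2: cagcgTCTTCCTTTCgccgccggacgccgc
Rplp0: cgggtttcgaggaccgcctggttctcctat
Rps4x: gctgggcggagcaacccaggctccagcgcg
Rpl10: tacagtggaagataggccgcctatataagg

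Ribosomal genes that the symbols miss behaved as follows in the first set. Fau, a fusion whose product includes eS30, rose with IFN-γ (0.42 ± 0.12, adjusted p = 0.0135) and with both (0.42), and Rack1, the 40S scaffold protein, rose with both (0.30). The call of Fau with IFN-γ was lost without unstimulated library a or c, and with library totals neither gene passed with both. Translation factors and related genes known for a TOP start had their own counts. Over all genes 13.5% rose and 16.7% fell with E. coli, 15.6% and 16.0% with IFN-γ, and 23.9% and 25.2% with both. Of 21 tested, 6 rose and 1 fell with E. coli, 12 rose and 1 fell with IFN-γ (median 0.37; 6 and 2 with library totals), and 10 rose and 3 fell with both (median 0.35; 6 and 5 with library totals). Pabpc1, the poly(A)-binding protein, rose by 0.89 with IFN-γ and 1.13 with both, and Eef1a1, the main elongation factor, by 0.56 with E. coli. Without unstimulated library a the rises numbered 3 with E. coli and 6 with IFN-γ. Of 8 snoRNA host genes 4 rose with both, 3 with IFN-γ and 3 with E. coli.

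Among genes for building ribosomes, more rose than fell with E. coli. Of 53 tested ribosome biogenesis genes 19 rose and 0 fell with E. coli by edgeR (12 and 0 by DESeq2, 27 and 0 at an unadjusted p under 0.05) with a median log2 change of 0.34, where 13.5% of all genes rose and 16.7% fell. With IFN-γ 3 rose and 10 fell (median −0.14; 3 and 4 by DESeq2), with both 2 rose and 13 fell (median −0.28; 2 and 10 by DESeq2), and for both against E. coli 0 rose and 27 fell by edgeR (median −0.60; 0 and 23 by DESeq2, 0 and 30 unadjusted), where 17.5% of all genes rose and 15.3% fell. Over all genes the shares that rose and fell were 15.6% and 16.0% with IFN-γ and 23.9% and 25.2% with both, and the medians of these 4 comparisons lay between −0.04 and −0.02. Fbl, the methyltransferase of box C/D snoRNPs, had 73.6, 88.7 and 71.8 CPM in unstimulated libraries a to c, 116, 112 and 116 with E. coli, 67.8, 48.9 and 55.2 with IFN-γ and 40.6, 41.4 and 43.9 with both. It was highest in all E. coli libraries and lowest in all libraries with both, and its log2 change for both against E. coli was −1.45 ± 0.14, adjusted p = 1.59e-07. Mrto4 (1.15), Nop58 (1.11), Bysl (0.96) and Utp4 (0.84), factors of 60S or 40S assembly, led the rises with E. coli. Without unstimulated library a the E. coli count was 7 and that of IFN-γ 0 rises and 3 falls, without b 6 fell with IFN-γ, and without c 5 rose with both. With library totals 18 rose and 0 fell with E. coli, 2 and 15 with IFN-γ, 0 and 22 with both, and 0 and 36 for both against E. coli. With IL-4 0 of 52 rose by edgeR and 7 fell (0 and 9 by DESeq2, 1 and 21 unadjusted), against 5.97% and 4.35% of all genes, Bysl with −1.41 among them.

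Mitochondrial ribosomal proteins, which serve the separate ribosome of mitochondria, fell more often than they rose where IFN-γ was given. Of 76 tested 5 rose and 4 fell with E. coli (6.58% and 5.26%, against 13.5% and 16.7% of all genes), 2 rose and 25 fell with IFN-γ (2.63% and 32.9%, against 15.6% and 16.0%; median −0.34), 2 rose and 32 fell with both (2.63% and 42.1%, against 23.9% and 25.2%; median −0.50), and 1 rose and 29 fell for both against E. coli (1.32% and 38.2%, against 17.5% and 15.3%). Mrpl45 and Mrpl54 were the exceptions that rose with both, by 1.74 and 1.42. With library totals 33 fell with IFN-γ, 50 with both and 51 for both against E. coli, without unstimulated library a 15 fell with IFN-γ and 1 with E. coli, without b 16 with IFN-γ, and without c 10 with E. coli. Only Mrpl33 passed with IL-4, and it fell.

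Regulators upstream of ribosome production passed the test in part. In the network around MYC 7 of 11 genes were tested, of which 5 rose and 1 fell with IFN-γ and likewise with both (3 and 1 in either case with library totals, and with IFN-γ without unstimulated library a). Among all genes 15.6% rose and 16.0% fell with IFN-γ, and 23.9% and 25.2% with both. Mxi1, an antagonist of MYC, rose by 1.4 with IFN-γ and 1.67 with both, and Mxd4, another, fell by 0.98 under E. coli, 0.93 under IFN-γ and 1.52 under both on the log2 scale. Among 20 tested genes of mTORC1 and LARP1, 3 rose and 2 fell with E. coli, 5 and 1 with IFN-γ (4 and 6 with library totals) and 6 and 4 with both. Ddit4, an inhibitor of mTORC1, rose by 2.06 with IFN-γ, 2.30 with both and 1.08 with IL-4, and Larp1, the repressor that binds TOP mRNAs, by 0.61 with IFN-γ and 0.82 with both. Of the 20 genes of this list tested with IL-4, 1 rose by edgeR (against 5.97% of all genes). Without unstimulated library d or without f, 0 of them rose.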

How the data were processed

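Libraries of peritoneal mouse eosinophils were compared by group as the labels give them, each stimulus with the unstimulated libraries of its own file layout. The values are counts per gene, deposited by the authors. The submitters' processing notes name GRCm38, fastp 0.20.1, STAR 2.7.2a, TopHat2 2.1.0 and HTSeq 0.6.1. Summary lines off genes (21.1% to 39.4% of counts in the first set) were left out. The members and lists were chosen with earlier results of these data known. All genes were fitted with edgeR 4.0.16 in R 4.3.3 (TMM, filterByExpr, quasi-likelihood F test, Benjamini-Hochberg adjustment over the 9883 or 10556 genes tested), with DESeq2 1.42.0 as the alternative beside other scalings, filters, added copies, a correction for tag collisions, a replicate block and leaving out each library. Named members were the 5 largest and 5 smallest changes per comparison with unstimulated libraries, members of known roles, those that failed the filter and those called both ways, and for other lists up to 4 called genes. A few other members were named after their values were seen. Copies were sought with BLAST+ 2.17.0. The test was tried on simulated data in which changed genes had a mean of at least 20 counts, since an earlier version that drew them from all tested genes recovered too few. The study calls the libraries biological replicates without saying whether each came from a separate mouse, and p-values measure the spread between libraries.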

Additional observations from a re-analysis of the deposited data

Results flagged for a closer look

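Among the genes named around the ribosomal proteins, 4 responded to E. coli differently with and without IFN-γ, by the interaction in edgeR. The log2 values of the interaction were −1.01 ± 0.20 (SE, adjusted p = 0.00498) for Fbl, −0.97 ± 0.24 (adjusted p = 0.0251) for Nop58, −0.71 ± 0.17 (adjusted p = 0.0197) for Ddx21 and −0.72 ± 0.19 (adjusted p = 0.0328) for Eif3l. Fbl and Nop58 belong to the box C/D particles that methylate rRNA, Ddx21 is a helicase of the nucleolus, and Eif3l is a subunit of the initiation factor eIF3. Each interaction is computed from all 4 groups of the first set, 3 libraries each. Among the 53 tested ribosome biogenesis genes 3 had such a difference (5.66%, against 4.62% of all genes), and 1 without unstimulated library a. The cause of the differences was not tested.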

How the results depend on the processing

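In all 901 alternative values were computed over 61 results and 30 settings. Medians changed sign in several alternatives. With library totals those of the members with both stimuli and for both against E. coli turned negative, as did those of the 60S genes with IFN-γ and of the exit tunnel genes with both, and without unstimulated library b the members' median with E. coli turned from −0.03 to 0.11.

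With library totals in place of TMM, IFN-γ gave 7 rises and 2 falls among the members (median 0.00315), both stimuli 5 rises and 19 falls (median −0.10), both against IFN-γ 6 calls, all 6 lower, both against E. coli 4 rises and 11 falls (median −0.0609), and IL-4 1 rise and 1 fall. With only the 6 libraries compared, E. coli gave 4 falls. Without the filter on low counts both against IFN-γ gave 2 calls, 2 of them lower. With at least 10 counts in every library both stimuli gave 7 falls, both against IFN-γ 2 calls, all 2 lower, and IL-4 1 rise. DESeq2 gave 1 rise with IL-4. Counts of pseudogenes matched by sequence, added as an alternative chosen after seeing the data, gave 2 calls for both against IFN-γ, 2 of them lower. Counts corrected for collisions of molecular tags gave 2 calls for both against IFN-γ, 2 lower, and 9 calls for both against E. coli, 8 higher. Summed shares moved by more than 1 SD to 3.47% with E. coli and 0.920% with IL-4 when copies were added, and to 3.17% (E. coli), 3.41% (IFN-γ) and 3.07% (both stimuli) after the collision correction. The causes were not tested.

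Leaving out single libraries gave 6 to 13 calls with E. coli (2 to 8 higher, 0 to 9 lower), 6 to 34 with IFN-γ (6 to 34 higher, 0 lower), 13 to 37 with both (9 to 36 higher, 1 to 8 lower), 0 to 5 for both against IFN-γ (0 to 1 higher, 0 to 5 lower), 6 to 19 for both against E. coli (5 to 18 higher, 0 to 1 lower), 0 for the interaction, and 0 to 4 with IL-4 (0 to 1 higher, 0 to 3 lower).

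With a replicate block the count was 1 for both against IFN-γ, 17 for both against E. coli and 0 for the interaction by edgeR. Libraries of the same replicate number in these groups had correlations of −0.04, 0.21 and 0.33 (IFN-γ and both) and 0.07, 0.10 and 0.16 (E. coli and both) across genes.

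Groups hold 3 libraries, and the smallest p of their permutation tests is 0.1. The counts of the first set end at 4095, where Rpl4 and Rps9 have means of 2157 and 2299.5. In the second set many members have few counts or share sequence with pseudogenes, and their absence from the calls says little. No genome was at hand, so copies outside annotated genes were not searched.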

Other observations

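A few smaller groups around the ribosome passed the test in part. Over all genes 13.5% rose and 16.7% fell with E. coli, 15.6% and 16.0% with IFN-γ, 23.9% and 25.2% with both, and 5.97% and 4.35% with IL-4. Of 13 RNA polymerase I genes, which transcribe rRNA, 3 rose and 1 fell with both, 2 rose with IFN-γ and 1 with E. coli. With library totals these became 1 rise and 1 fall with IFN-γ and 1 and 2 with both. The rise with E. coli was lost with DESeq2 and without unstimulated library b. Of 12 tested with IL-4, 0 passed by edgeR and 0 by DESeq2, and 3 had an unadjusted p under 0.05. Of 9 chaperones of ribosomal proteins 2 rose with E. coli, 1 rose and 1 fell with IFN-γ, 2 rose and 1 fell with both (0 and 3 with library totals), and 1 of 8 tested fell with IL-4. With DESeq2, without unstimulated library a or without b, 1 chaperone rose with E. coli. With DESeq2 or without c, 0 chaperones fell with IFN-γ or with both. With DESeq2 or without f, 2 fell with IL-4. Among 8 S6 kinase genes 3 fell with E. coli (1 without unstimulated library a), 1 rose with IFN-γ, and 1 rose and 3 fell with both (1 and 3 with IFN-γ with library totals), and of 9 tested with IL-4 2 rose.

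In the second set Gas5 and Snhg1, snoRNA host genes whose transcripts start with a TOP motif, fell with IL-4, by 0.51 and 0.73 on the log2 scale, and Nap1l1, a chaperone counted among the TOP genes, fell by 0.71. Mxd1, an antagonist of MYC, rose by 1.11.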
